A study of Mus musculus with 18 samples.

Results

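Wild-type Purkinje cells at 12 weeks of age were compared with wild-type Purkinje cells at 8 weeks, in 6 of the study's 18 libraries, 3 per age. The 6 libraries were chosen by their labelled genotype and age alone. All mice of the study were F1 animals of 50% C57B6 and 50% FVB background, bred by crossing L7CGG90Fmr1 heterozygotes on C57B6 with L7/Pcp2 eEGFPL10a homozygotes on FVB. Every group therefore carries the Pcp2 BAC that expresses EGFP-L10a, hemizygous in these F1 mice, and the mice called wild type here lack only the L7CGG90Fmr1 transgene. The other 12 libraries are wild type at 4 weeks and CGG90Fmr1 at 4, 8 and 12 weeks, which add a Purkinje cell transgene of Fmr1 with a long CGG repeat. Each library pools 4 mice of both sexes (2 males), whose cerebella gave the RNA, so differences between single mice are not visible. No wild-type group without the ribosome tag was compared.

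Purkinje cells are the large inhibitory neurons that carry the whole output of the cerebellar cortex. Translating ribosome affinity purification (TRAP) tags the large ribosomal subunit with green fluorescent protein in 1 cell type and pulls down the tagged ribosomes with the mRNA they carry, so the values reflect ribosome-bound RNA, not total RNA. Here the tag is driven by the promoter of Pcp2, also called L7, which is active in Purkinje cells. In the cerebellum of the mouse most growth of Purkinje dendrites and pruning of their climbing fibres takes place in the first weeks after birth, and the interval compared here lies in young adulthood. RNA was read on Affymetrix arrays and deposited as log2 values of the GCRMA method, in which genes without a signal sit at a floor between about log2 2 and 3. Each gene is represented by 1 probe set, and 10068 genes that reached log2 4 in at least 3 of the 18 libraries were tested.

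Markers of Purkinje cells were mostly high, and some markers of other cells were high too. At 12 weeks Ttr of choroid plexus averaged 13.78, Mbp of oligodendrocytes 12.52 and Cbln1 of granule cells 11.49. These lay above the Purkinje markers Slc1a6 (10.72), Lhx1 (8.79), Lhx5 (8.19) and Foxp2 (6.55), but below Pcp4 (15.11), Pcp2 (14.79) and Car8 (13.93). The other Purkinje markers lay between Cbln1 and Ttr, from Homer3 (12.01) to Ppp1r17 (13.63). Whether levels compare between the probe sets of different genes was not tested. No unpurified RNA was compared here, so enrichment of Purkinje RNA was not tested. Pcp2, whose own promoter also expresses the tag, read log2 14.73, 14.91 and 14.75 in the 12-week libraries and 14.93, 14.78 and 14.91 in the 8-week libraries, close to the top of the scale of each array. The mean level of 13 Purkinje markers was 12.22, 12.11 and 11.68 at 12 weeks and 12.16, 11.83 and 12.33 at 8 weeks, a difference of -0.1 (12 weeks minus 8 weeks, as everywhere below; exact permutation test, two-sided, p = 0.6, where 3 against 3 libraries cannot go below 0.1). The mean of 55 markers of other cerebellar cell types was 7.46, 7.14 and 7.67 at 12 weeks and 7.4, 8.21 and 5.93 at 8 weeks, a difference of 0.24 (exact permutation p = 0.8). These markers therefore varied more among the 8-week libraries than between the ages, and 8-week replicate 3 had the lowest value of all 18 libraries, whose highest was 8.83. Rpl10a, the ribosomal protein that the tag is fused to, differed by -0.08 (95% interval -0.57 to 0.42) and Fmr1 by 0.59 (95% interval -1.79 to 2.97). Other probe sets of Fmr1 differed by 0.19 and -0.57. In the probe set used, Fmr1 was log2 5.6 in 8-week replicate 1 against 7.63 to 8.53 in the other 5 libraries. Each of these 5 single values had a Benjamini-Hochberg p of 0.9 over the 5 tests.

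**Figure D1:**
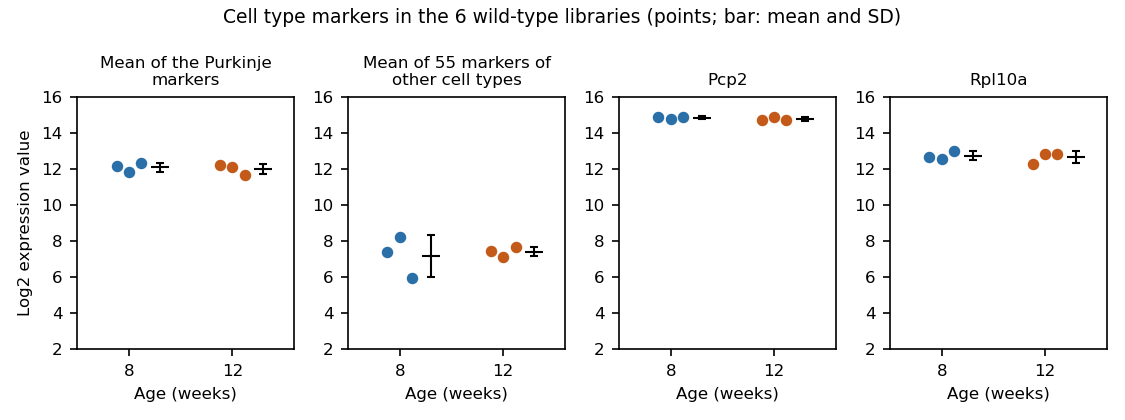
Log2 levels by age in weeks in the 6 wild-type libraries (points, with the mean and SD as a bar): the mean of 13 Purkinje markers, the mean of 55 markers of other cell types, Pcp2 and Rpl10a. The Purkinje means lie between 11.68 and 12.33 in all 6 libraries, while the other markers spread from 5.93 to 8.21 within the 8-week group.

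No gene passed the test between 12 and 8 weeks in wild-type Purkinje cells: of 10068 genes, 0 were higher and 0 lower at an adjusted p of 0.05 (limma, 0.0% called in each direction), and the smallest adjusted p was 0.384, shared by 12 genes. Without adjustment 567 genes (5.63%) had p below 0.05, 194 of them higher (1.93%) and 373 lower (3.7%) at 12 weeks. The 3 libraries of one age lay wholly above the 3 of the other for 362 genes higher (3.6%) and 638 genes lower (6.34%). A difference of at least log2 1, which is 2-fold, was seen in 398 genes upward (3.95%) and 528 downward (5.24%), with no error taken into account. The median gene differed by 0.33 in size, less than its median standard error of 0.47. Libraries of different ages were as alike as libraries of the same age: Pearson's r across genes, which are not independent replicates, was 0.888 to 0.954 over the 9 pairs between ages and 0.894 to 0.946 over the 6 pairs within an age. A count of 0 at this spread does not show that the ages are alike, since the interval of a typical gene spans about 1 log2 unit to either side.

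More genes were lower than higher at 12 weeks, 56.9% against 43.1%, with a median of -0.08. After quantile normalization 51.0% of genes were lower and the median was -0.01. Quantile normalization gives all arrays the same distribution, so it shrinks such a lean whatever its source. The source of the lean was not tested. The 6 wild-type libraries were immunoprecipitated on 6 different days, 0 of them shared by both ages, so no within-day value can be given. The 12-week libraries also carry a run of title numbers of their own, apart from the run of the 8-week libraries, and age and these runs cannot be told apart. A fit with the day as a block joins the 2 ages only through CGG90Fmr1 libraries of the same days. Of the 6 wild-type libraries, only 12-week replicate 1 and 8-week replicate 3 shared a day with other libraries. That fit therefore compares 1 wild-type library per age, and 8-week replicate 3 had the lowest mean of other-cell markers. In that fit the median gene was higher by 0.19 and 43.5% of genes were lower. That fit has 3 residual degrees of freedom, and in it the 55 markers of other cell types had a median difference of 1.62. It turned the direction of many of the gene lists described below, as did leaving out single libraries, and these values stand beside most of the lists.

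A ranking by p gave 32 genes that are described here although none passed the test. The rule took up to 10 genes of smallest p in each direction with both group means at log2 4 or more, and up to 6 in each direction with 1 group under log2 4. Their adjusted p ran from 0.384 to 0.727, and since small p values chose them, their separation is no further evidence. Of the 32, 31 had library ranges that did not overlap. The 12-week group was the extreme one of all 6 groups of the study, on the side of its difference, for 28 of the 32 genes. The 8-week group was the opposite extreme for 22, and both held for 19. The choice by small p favours such extremes, so these counts are no further evidence either. The same counts over all genes were not made.

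The first of these genes were higher at 12 weeks and had both means above log2 4. Pcdhb3, a clustered protocadherin of the beta group that mediates adhesion between neurons, read 7.49, 6.51 and 6.91 at 12 weeks and 5.74, 3.91 and 4.42 at 8 weeks. The difference was 2.28 ± 0.47 (SE, n = 3 per age; adjusted p = 0.384), and all 3 of the 12-week libraries were above all of the 8-week ones. Slc35a5, a member of the nucleotide sugar transporter family, was 10.07, 9.18 and 9.20 against 8.00, 8.47 and 7.70, higher by 1.42 ± 0.32 (adjusted p = 0.384). Slc38a10, of an amino acid transporter family, was 12.08, 11.87 and 12.31 against 11.38, 11.12 and 10.31, higher by 1.15 ± 0.27 (adjusted p = 0.471). Pofut2, which adds O-linked fucose to proteins in the endoplasmic reticulum, was 10.42, 11.49 and 10.41 against 9.31, 8.61 and 9.50, higher by 1.64 ± 0.44 (adjusted p = 0.704). The Golgi membrane protein gene Golm2 was higher by 1.15 (adjusted p = 0.523) and Tm9sf2, of the transmembrane 9 family, by 0.95 (adjusted p = 0.704).

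Fasn, the enzyme that builds long-chain fatty acids, was 6.41, 6.79 and 6.27 at 12 weeks and 5.60, 4.77 and 4.40 at 8 weeks, higher by 1.57 ± 0.34 (adjusted p = 0.384). It is a gene in which the 8-week group stood apart: the 8-week wild-type mean was below all the other groups, which averaged 7.27 in wild type at 4 weeks and 6.29, 6.58 and 6.79 in CGG90Fmr1 at 12, 8 and 4 weeks. Ttc7b, part of the complex that places phosphatidylinositol 4-kinase at the plasma membrane, was 11.51, 10.84 and 12.24 against 10.56, 10.32 and 10.46, higher by 1.08 ± 0.29 (adjusted p = 0.704). Isoc1 was higher by 1.88 ± 0.52 (adjusted p = 0.704). Dmrtc1a was 6.55, 7.79 and 6.55 against 3.81, 3.83 and 6.41, so 8-week replicate 3 lay just under the 12-week libraries and the difference of 2.28 rested on the other 8-week libraries being near the floor (adjusted p = 0.523). Without 8-week replicate 3 the Dmrtc1a difference was 3.14 and passed the test (adjusted p = 0.014).

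The next were lower at 12 weeks, again with both means above log2 4. Tfam, which packs and transcribes mitochondrial DNA, was 6.76, 6.33 and 6.28 at 12 weeks and 7.61, 7.61 and 8.02 at 8 weeks. The difference was -1.29 ± 0.27 (adjusted p = 0.384), with no overlap, and the other 4 groups averaged 7.17 to 7.68. Pknox1, a homeobox transcription factor that pairs with PBX and HOX proteins, was 5.76, 5.94 and 5.51 against 7.51, 7.89 and 7.30, lower by 1.83 (difference -1.83 ± 0.36, adjusted p = 0.384). Phf10, a subunit of the BAF chromatin remodelling complex, was 7.18, 6.32 and 6.86 against 8.69, 8.49 and 8.13, a difference of -1.65 ± 0.36 (adjusted p = 0.384). Larp7, which stabilises the 7SK RNA that holds transcription elongation factor P-TEFb inactive, was 6.73, 6.87 and 6.41 against 8.16, 7.80 and 8.21, a difference of -1.38 ± 0.31 (adjusted p = 0.424). In each of these 4 genes the 12-week group had the lowest mean of all 6 groups.

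Nop14, needed to assemble the small ribosomal subunit in the nucleolus, was 5.65, 5.98 and 4.80 against 7.09, 7.02 and 7.70 (difference -1.80 ± 0.40, adjusted p = 0.384). Kmt5a, the histone H4 lysine methyltransferase, was 9.10, 8.23 and 9.42 against 10.14, 10.09 and 10.29 (difference -1.26 ± 0.33, adjusted p = 0.704). Smpd4, a neutral sphingomyelinase, was 4.96, 5.17 and 5.23 against 6.44, 7.93 and 6.43 (difference -1.81 ± 0.39, adjusted p = 0.384), but the wild-type mean at 4 weeks was 5.31, near that at 12 weeks. Hcfc2 differed by -1.21 (adjusted p = 0.704), 2700097O09Rik by -1.71 (adjusted p = 0.467) and the predicted gene Gm13205 by -2.62 (adjusted p = 0.384). Gm13205 varied widely at 12 weeks, at 6.12, 7.91 and 5.06 against 9.53, 8.47 and 8.94, and without 12-week replicate 2 its difference was -3.39 and passed the test.

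**Figure D2:**
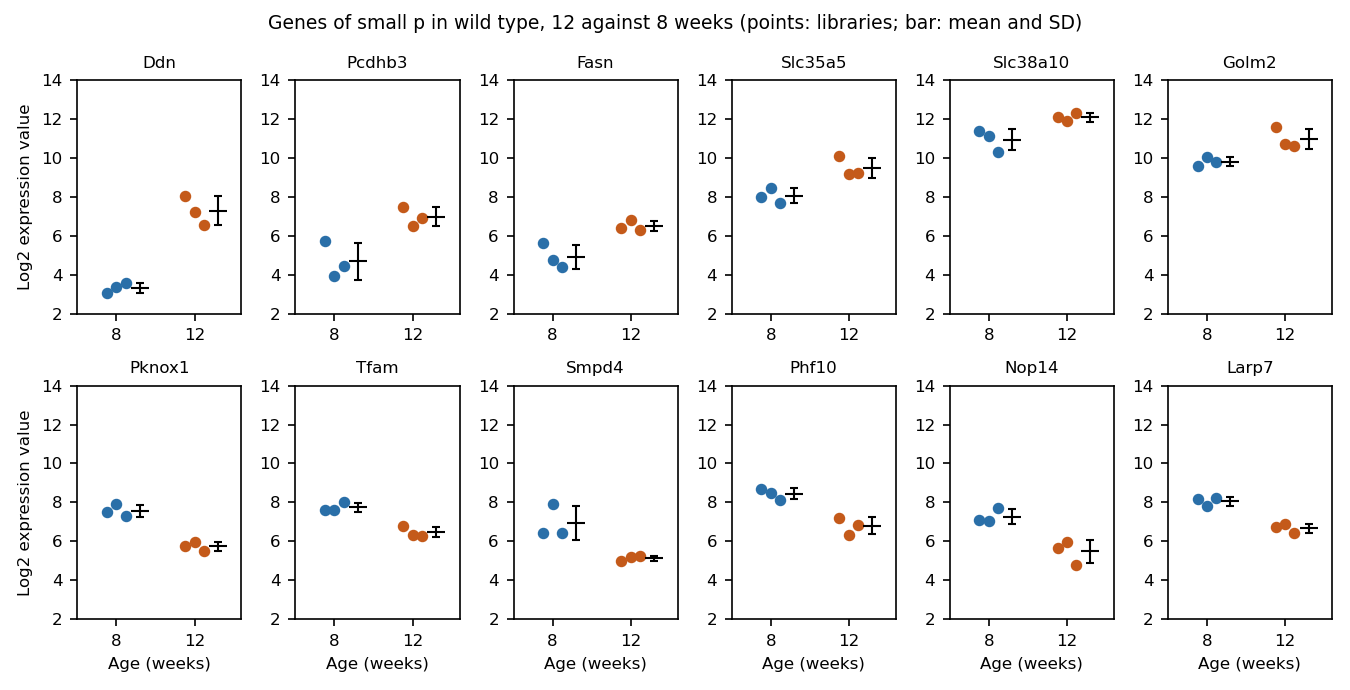
Log2 level of 12 genes of small p in each of the 6 wild-type libraries (points) by age in weeks, with the mean and SD as a bar. The ages do not overlap in any panel, and in Ddn the 8-week libraries lie near the floor, between 3.05 and 3.55.

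In a further set 1 of the ages lay under log2 4, near the floor, so these differences can be compressed and no fold is given. Ddn, which encodes dendrin, a protein of the postsynaptic density whose mRNA travels into dendrites, had the smallest p of all genes. It was log2 8.05, 7.22 and 6.56 at 12 weeks and 3.05, 3.38 and 3.55 at 8 weeks. The difference of 3.95 ± 0.69 (95% interval 2.46 to 5.43) had an adjusted p of 0.384. Ddn also averaged 3.62 in wild type at 4 weeks and 3.57, 4.24 and 3.02 in CGG90Fmr1 at 12, 8 and 4 weeks, but single libraries of those groups reached 5.42 (wild type at 4 weeks, replicate 3) and 4.92 (CGG90Fmr1 at 8 weeks, replicate 2). All 3 of the 12-week wild-type libraries were above the other 15. Without wild-type 4-week replicate 3, which enters the shared spread, the adjusted p of Ddn was 0.0375. Tti1, a co-chaperone of the ATM and mTOR family of kinases, was higher by 2.45, and Slc39a9, a zinc transporter, by 2.33 (both adjusted p = 0.384). Entpd3, which breaks down nucleotides outside the cell, was higher by 2.47 and the lysosomal membrane protein gene Glmp by 1.79 (both adjusted p = 0.471). Nectin4, an adhesion molecule, was higher by 1.80 (adjusted p = 0.523), and its 12-week range of 4.51 to 6.27 overlapped 4.54 in 8-week replicate 1.

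In the other direction, Sft2d2, a gene of vesicle transport, was at the floor at 12 weeks, at 2.63, 3.28 and 2.83, and at 6.05, 6.35 and 5.74 at 8 weeks (difference -3.13 ± 0.74, adjusted p = 0.471). Taf1a, a subunit of the factor that starts ribosomal RNA transcription, was 3.85, 3.98 and 4.04 against 4.65, 5.80 and 5.64 (difference -1.40, adjusted p = 0.704). Lin54, of the DREAM complex that represses cell cycle genes, differed by -1.54 (adjusted p = 0.704). Zfp287 differed by -1.12 (adjusted p = 0.498), Sntb1 by -0.89 (adjusted p = 0.721) and 4632404H12Rik by -2.68 (adjusted p = 0.727).

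A further reading came from the other probe sets of the same genes, which the ranking did not use, although they measure the same RNA samples. For 13 of the 32 genes, 20 other probe sets were at log2 4 or more at both ages. Of these 20, 16 had the direction of the probe set used and 4 were at least 50% as large. The 4 belonged to Larp7 (-1.18), Phf10 (-1.07), Pofut2 (0.90) and Hcfc2 (-0.63). Others were far smaller: Pknox1 read -0.10, Kmt5a -0.05, Tfam -0.30 and Golm2 -0.10 (the probe set used gave 1.15). Isoc1 read -0.28 and 0.25, and Slc38a10 0.08 and -0.25. For 10 of the 32 genes there was 1 probe set only. None of the genes named with 1 age under log2 4 was among the 13. Probe sets under log2 4 at either age were not counted, and they went both ways. The other probe set of Nectin4 was opposite, at 3.1 at 12 weeks against 4.1 at 8 weeks. In 1 other probe set each, Slc38a10 (-0.68), Kmt5a (0.57), Zfp287 (0.55) and 4632404H12Rik (0.45) were opposite too. Smpd4 (-0.93), Sft2d2 (-0.67), Dmrtc1a (0.5) and a further probe set of Kmt5a (-0.48) had the same direction. The share of 16 in 20 was not compared with that of genes not chosen by p.

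Synaptic signalling in Purkinje cells rests on glutamate from parallel and climbing fibres and on GABA from interneurons. Of 16 genes of ionotropic glutamate receptors and their auxiliary subunits, 11 were higher and 5 lower, with a median of 0.22 beside -0.08 for all genes, and 0 passed the test. Cacng7, an auxiliary subunit of AMPA receptors, was 10.49, 10.34 and 10.31 at 12 weeks and 9.81, 8.95 and 9.10 at 8 weeks (difference 1.10 ± 0.33, adjusted p = 0.727). Grik4, a kainate receptor subunit, was 6.32, 6.71 and 6.85 against 5.91, 4.52 and 5.19 (difference 1.42 ± 0.52, adjusted p = 0.765). These 2 are the list's genes with an unadjusted p below 0.05, and in both the ages did not overlap. The list's lean rested on 8-week replicate 3: without it 5 of the 16 were higher and the median was -0.15. With the day as a block 12 were higher (median 1.75). Camk2a, the calcium-dependent kinase of synaptic plasticity, was 11.31, 11.29 and 11.03 against 9.95, 9.57 and 10.18 (difference 1.31 ± 0.51, adjusted p = 0.820). It was the single gene with an unadjusted p below 0.05 among 18 genes of metabotropic glutamate signalling and long-term depression, of which 8 were higher and 10 lower (median -0.06). Without 12-week replicate 3, 13 of the 18 were higher (median 0.21), as with the day as a block (median 0.37).

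The postsynaptic scaffold genes were split evenly, 11 higher, Ddn among them, and 11 lower of 22 (median -0.07). Homer1 differed by 0.79 (adjusted p = 0.923) and Dlg4, which encodes PSD-95, by -0.47 (adjusted p = 0.910). Without 12-week replicate 3, 17 of the 22 were higher (median 0.20), and with the day as a block 16 (median 0.89). Of 13 genes of GABA synthesis, transport and reception, 7 were higher and 6 lower (median 0.00), against 4 higher without 12-week replicate 1 and 9 with the day as a block (median 0.84). Gad2, which makes the transmitter, was 10.95, 9.76 and 10.57 at 12 weeks and 10.95, 11.39 and 11.27 at 8 weeks, a difference of -0.77 ± 0.33 (adjusted p = 0.866) with touching ranges. Slc1a6, the glutamate transporter of Purkinje spines, was 10.63, 10.88 and 10.63 against 10.35, 9.56 and 10.44, and this difference of 0.60 ± 0.40 did not pass although the ages were separate. Of 31 genes of synaptic vesicles and release, 16 were higher and 15 lower (median 0.01), against 10 higher without 8-week replicate 3 and 26 with the day as a block (median 0.75). Sv2c, a vesicle protein, was 4.95, 6.09 and 5.45 at 12 weeks and at the floor, 3.57, 3.03 and 3.27, at 8 weeks (difference 2.21 ± 0.63, adjusted p = 0.727). Unc13c averaged 5.63 against 6.94 with overlapping ranges (difference -1.31 ± 0.59, adjusted p = 0.867). These 2 are the list's genes with an unadjusted p below 0.05.

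Ion channel and calcium handling genes give Purkinje cells their fast spontaneous spikes, and their counts were near even but varied with single libraries and with the day. Of 37 potassium and HCN channel genes 19 were higher and 18 lower (median 0.06), and none had an unadjusted p below 0.05. With the day as a block 27 were higher (median 1.25). Of 12 sodium channel and axon initial segment genes 7 were higher and 5 lower (median 0.02). The count higher was 2 without 12-week replicate 1, 3 without 8-week replicate 3, 4 without 8-week replicate 1, 10 without 8-week replicate 2, and 12 with the day as a block (median 1.77). Among these Nfasc, which anchors the initial segment, differed by 0.98 ± 0.46 (adjusted p = 0.872) and Scn4b, the subunit linked to resurgent sodium current, by 0.62 (adjusted p = 0.872). Of 29 calcium channel and calcium handling genes 15 were higher and 14 lower (median 0.01), against 8 higher without 12-week replicate 1 and 25 with the day as a block (median 1.24). Ryr2, a calcium release channel of the endoplasmic reticulum, was the one with an unadjusted p below 0.05. Its difference of -1.38 ± 0.46 (adjusted p = 0.728) lay near the floor, at 3.19, 2.97 and 2.46 against 3.20, 5.40 and 4.15. Aldoc, the zebrin II antigen that marks stripes of Purkinje cells, differed by -0.17. Of 8 zebrin pattern genes 3 were higher and 5 lower, against 6 higher without 12-week replicate 3. With the day as a block 4 were higher (median -0.01).

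Cholesterol synthesis genes were mostly lower at 12 weeks, 17 of 20 (85.0%, beside 56.9% of all genes), with a median of -0.21, and 0 passed the test. Brain cells make their own cholesterol, since that of the blood does not enter. Fdps, which makes farnesyl diphosphate, was 4.33, 5.50 and 2.12 at 12 weeks and 5.73, 6.48 and 5.57 at 8 weeks (difference -1.95 ± 0.91, adjusted p = 0.872). Sqle, the squalene epoxidase, was 6.25, 6.60 and 3.73 against 7.18, 6.66 and 6.82 (difference -1.36 ± 0.71, adjusted p = 0.872). Lss, which closes the sterol rings, was 6.73, 7.24 and 7.23 against 8.42, 9.07 and 7.33 (difference -1.21 ± 0.87, adjusted p = 0.910). None of these 3 overlapped between the ages, but each was only narrowly separate, as at 5.50 against 5.57 in Fdps. Of the 20 genes 3 were lower without overlap (15.0%, beside 6.34% of all genes) and 1 was higher without overlap. Replicate 3 was the lowest 12-week library in Fdps and Sqle. The number of lower genes was 13 to 16 on leaving out each wild-type library, 14 after quantile normalization (median -0.13), and 8 with the day as a block, where the median was 0.34. In the CGG90Fmr1 libraries 6 of the 20 were lower at 12 weeks (median 0.23). Of 16 fatty acid and lipid genes, Fasn among them, 6 were higher and 10 lower (median -0.06), against 11 higher without 8-week replicate 2, 10 without 8-week replicate 1 and 12 with the day as a block (median 1.75).

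Proteasome subunit genes, whose products degrade ubiquitin-tagged proteins, were lower in 29 of 37 (78.4%), with a median of -0.27, and 0 passed the test. Psmd10, a chaperone of proteasome assembly, differed by -0.87 ± 0.32 (adjusted p = 0.791) and Psmd9, another, by -0.94 ± 0.42 (adjusted p = 0.867). The core subunit gene Psma7 differed by -0.42 and Psmd6 of the regulatory cap by -0.56 (both adjusted p = 0.872). Between 28 and 32 were lower on leaving out each wild-type library, and 27 after quantile normalization (median -0.21). With the day as a block 23 were lower (median -0.07, where all genes had 0.19). In CGG90Fmr1 25 of the 37 were lower (median -0.08).

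Of 69 oxidative phosphorylation genes 47 were lower (68.1%) with a median of -0.10, next to the -0.08 of all genes, and for 9 of the 69 the 12-week libraries were all below the 8-week ones, beside 6.34% of all genes. Sdha, the catalytic subunit of complex II, was 12.87, 12.90 and 12.74 against 13.40, 13.17 and 13.32 (difference -0.46 ± 0.18, adjusted p = 0.830). Ndufa9 and Ndufa10 of complex I differed by -0.60 and -0.42 (both adjusted p = 0.872). The count of lower genes ran from 38 to 60 on leaving out each wild-type library, and was 45 after quantile normalization (median -0.06) and 58 with the day as a block (median -0.23, where all genes had 0.19). Of 41 cytoplasmic ribosomal protein genes 27 were lower (median -0.07), and single genes went both ways: Rps3a1 differed by -0.59 ± 0.20 (adjusted p = 0.740), Rplp2 by 0.43 and Rps9 by 0.41 (both adjusted p = 0.872). Without 12-week replicate 1, 13 of the 41 were lower, and 20 to 30 on leaving out each of the other wild-type libraries. With the day as a block 38 were lower (median -0.58). Of 41 translation factor genes 28 were lower (median -0.14, and 21 with the day as a block, median -0.01), with Eif3i at -0.34 and Eif2b2 at -0.75 (both adjusted p = 0.872).

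Genes of the endoplasmic reticulum's unfolded protein response did not share a direction: 15 of 23 were higher and 8 lower (median 0.13), against 7 higher without 12-week replicate 1 and 10 without 8-week replicate 3. With the day as a block 16 were higher (median 1.28). Creld2 differed by 1.25 ± 0.55 (adjusted p = 0.866) and the transcription factor Atf4 by 0.64 ± 0.29 (adjusted p = 0.867), while the chaperone genes Sdf2l1 and Pdia4 differed by -1.11 (adjusted p = 0.806) and -1.15 (adjusted p = 0.872). Of 18 heat shock genes 8 were higher and 10 lower (median -0.08), and with the day as a block 7 were higher (median -0.18). Among them Hspa4l differed by -1.22 ± 0.43 (adjusted p = 0.747), Dnajb4 by -0.44 and the mitochondrial chaperone gene Hspd1 by -0.39 (both adjusted p = 0.872). Of the lysosome and autophagy genes 21 of 34 were higher (61.8%, median 0.14), 18 to 26 on leaving out each wild-type library, 23 after quantile normalization and 20 with the day as a block (median 0.41). Atg14, which directs the kinase that starts autophagosomes, was 4.65, 4.43 and 5.76 against 2.69, 3.75 and 3.47 (difference 1.64 ± 0.51, adjusted p = 0.727). Lamp2, a membrane protein of lysosomes, differed by 1.43 and Atg9a by 0.79 (both adjusted p = 0.872).

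Of 46 splicing genes 29 were lower (63.0%, beside 56.9% of all genes; median -0.14). The 6 with an unadjusted p below 0.05 were all lower, where over all genes 3.7% were lower and 1.93% higher at that level. Srrm1 differed by -1.16 (adjusted p = 0.806), Srsf11 by -0.79 (adjusted p = 0.858) and Pnisr by -2.23 (adjusted p = 0.851). The count of lower genes was 21 without 8-week replicate 2 (median 0.06) and 27 to 35 without any other wild-type library. It was 25 after quantile normalization (median -0.07) and 15 with the day as a block (median 0.30). Of 22 genes for FMRP partners and proteins that bind CGG repeat RNA 15 were lower (median -0.24, and 0.23 in CGG90Fmr1). The count was also 15 after quantile normalization (median -0.17) and 10 with the day as a block (median 0.04). Mbnl2, a splicing regulator, differed by -1.03 ± 0.37 (adjusted p = 0.755) and Caprin1, an RNA granule protein, by -0.69 ± 0.31 (adjusted p = 0.866). Tardbp, which encodes TDP-43, was 9.12, 8.37 and 9.49 against 9.51, 9.77 and 9.66 (difference -0.65 ± 0.31, adjusted p = 0.872), with 12-week replicate 3 next to the 8-week range.

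Of 53 chromatin genes 36 were lower (median -0.23, and 31 to 36 on leaving out each wild-type library). After quantile normalization 35 were lower (median -0.14), and with the day as a block 19 (median 0.34). Smarca4, a motor subunit of the BAF complex, differed by -1.01 ± 0.37 (adjusted p = 0.768) and the histone methyltransferase gene Kmt2d by -0.92 ± 0.42 (adjusted p = 0.872), while Hdac2 differed by 0.63 ± 0.28 (adjusted p = 0.872). Of 32 cytoskeleton and transport genes 23 were lower (median -0.15, and 13 with the day as a block, median 0.12), led by Dync1h1, the heavy chain of dynein, at -1.29 ± 0.44 (adjusted p = 0.740), with the neurofilament gene Nefm at -0.44 (adjusted p = 0.872). Of 12 small nucleolar RNA host and other noncoding genes 8 were lower (median -0.26), against 6 without 8-week replicate 2 and 12 with the day as a block (median -0.74). Snhg5 was 8.56, 8.91 and 8.53 against 9.44, 9.68 and 9.90 (difference -1.01 ± 0.33, adjusted p = 0.728), and in CGG90Fmr1 it was higher at 12 weeks by 1.15. Of 11 genes of the p53 response 8 were lower (median -0.37, and 5 with the day as a block, median 0.10), with Trp53inp1 at -1.57 (adjusted p = 0.800) and Sesn1 at 0.92 (adjusted p = 0.740). Of 22 hereditary ataxia genes 16 were lower (median -0.10), against 10 without 8-week replicate 2 (median 0.13) and 4 with the day as a block (median 0.57), while Atxn10 was 11.68, 11.24 and 11.49 against 10.96, 10.95 and 10.82 (difference 0.56 ± 0.23, adjusted p = 0.866).

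Markers of other cells were measured beside these lists. Of the 55 tested, 36 were higher and 19 lower at 12 weeks (median 0.16), and 0 had an unadjusted p below 0.05. The count higher was 13 without 8-week replicate 3 (median -0.38) and 28 to 49 without any other wild-type library. Of the lists, the 6 microglial markers had a median of 0.60 and the 7 interneuron markers one of 0.45. Without 8-week replicate 3 these were -0.47 and -0.32, and with the day as a block 1.97 and 2.46. Markers of cerebellar nuclei had a median of 0.62, choroid plexus 0.46, astrocytes 0.19, oligodendrocytes 0.16 and granule cells 0.02. The 4 markers of oligodendrocyte precursors were all lower (median -0.17), as was Rgs5 of mural cells (-0.62). Cx3cr1, P2ry12 and Tmem119 of microglia and Cldn5 of endothelium stayed near the floor. The range within the 8-week group was wider than the age difference: Laptm5 of microglia was 9.11, 9.03 and 10.34 at 12 weeks and 8.49, 9.16 and 5.51 at 8 weeks (difference 1.78 ± 0.96, adjusted p = 0.872). B2m, the light chain of MHC class I, was 9.28, 9.50 and 10.53 against 8.02, 9.44 and 7.07 (difference 1.59 ± 0.67, adjusted p = 0.858), also lowest in 8-week replicate 3, the library with the lowest mean of other-cell markers. The part of these cells in the results above was not tested beyond a fit with that mean as a covariate, in which 0 genes passed and 57.3% were lower. In bulk libraries of this kind, fewer cells of a type and less RNA per cell cannot be told apart.

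**Figure D3:**
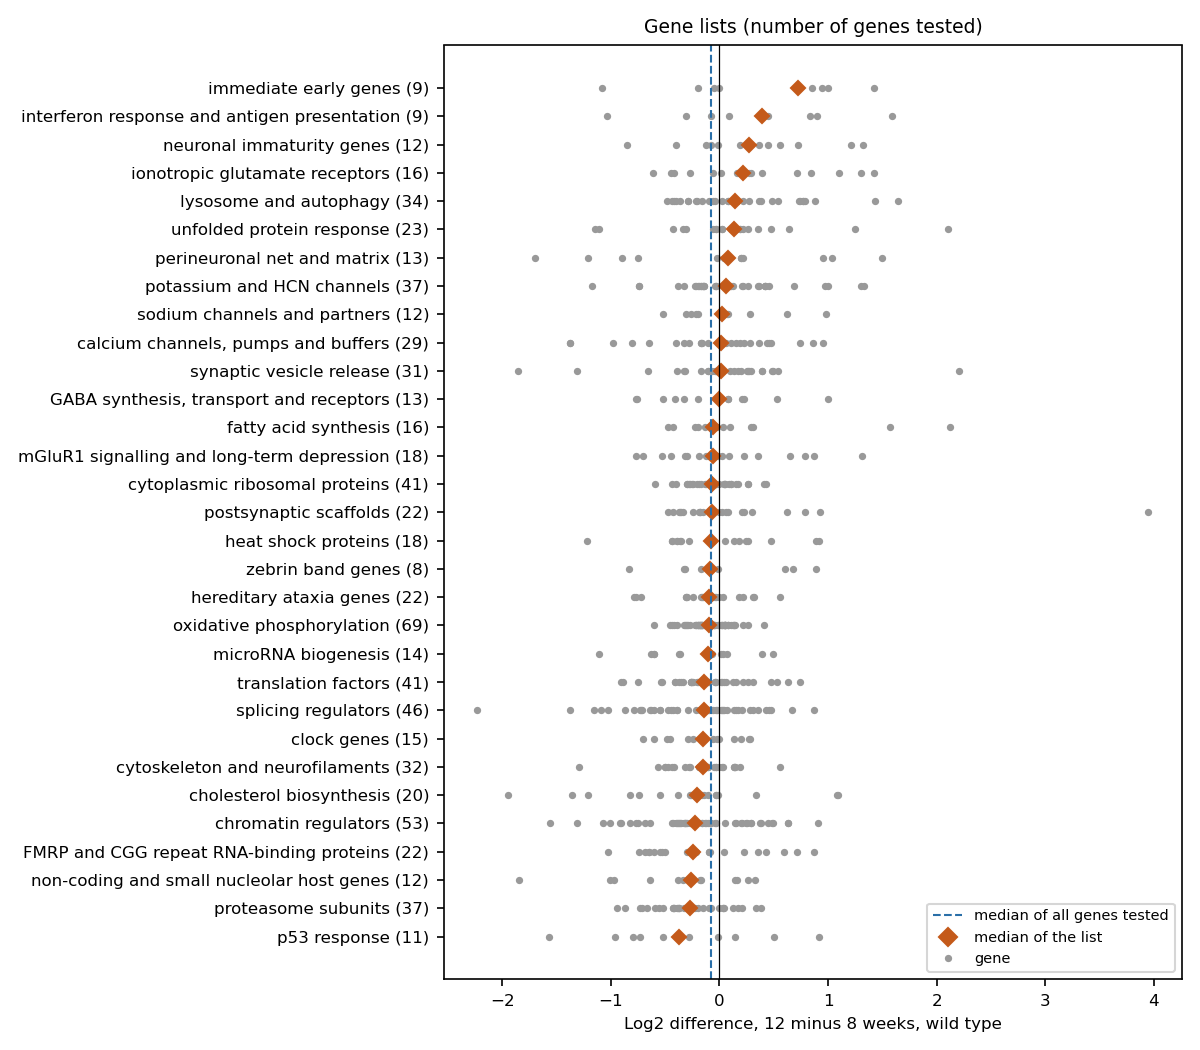
For each gene list, the difference between 12 and 8 weeks of every tested member (grey points, log2) with the list median (diamond), for lists with at least 8 tested genes. The dashed line is the median of all 10068 genes at -0.08. Every list has genes on both sides of 0, proteasome and cholesterol genes lie mostly below it, and no gene passed the test.

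The CGG90Fmr1 libraries give the same age step in mice with the transgene. Between their 12-week and 8-week libraries 1 of 10068 genes passed the test (0.00993%) and 629 had an unadjusted p below 0.05 (6.25%). The libraries labelled CGG90Fmr1 12 weeks replicates 1 and 2 had Fmr1 at 7.10 and 6.03, inside the wild-type range, against 12.01 in replicate 3, so this step is given as labelled. Of the 32 genes named by p in wild type, 17 had the same sign in CGG90Fmr1, 8 of the 16 higher and 9 of the 16 lower. Of the 10068 genes 5336 had the same sign in both genotypes and Pearson's r of the differences was 0.0601, a description over genes, which are not independent. With replicate 3 as the sole CGG90Fmr1 12-week library r was -0.00697. Ddn, higher by 3.95 in wild type, differed by -0.67 in CGG90Fmr1, and the difference between these steps, 4.62, had an adjusted p of 0.676. Sft2d2 differed by -3.13 in wild type and by 1.40 in CGG90Fmr1 (difference between the steps -4.53, adjusted p = 0.756). Pknox1 and Tfam kept their sign, at -0.50 and -0.33 in CGG90Fmr1, and Fasn had the opposite sign, at -0.30.

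**Figure D4:**
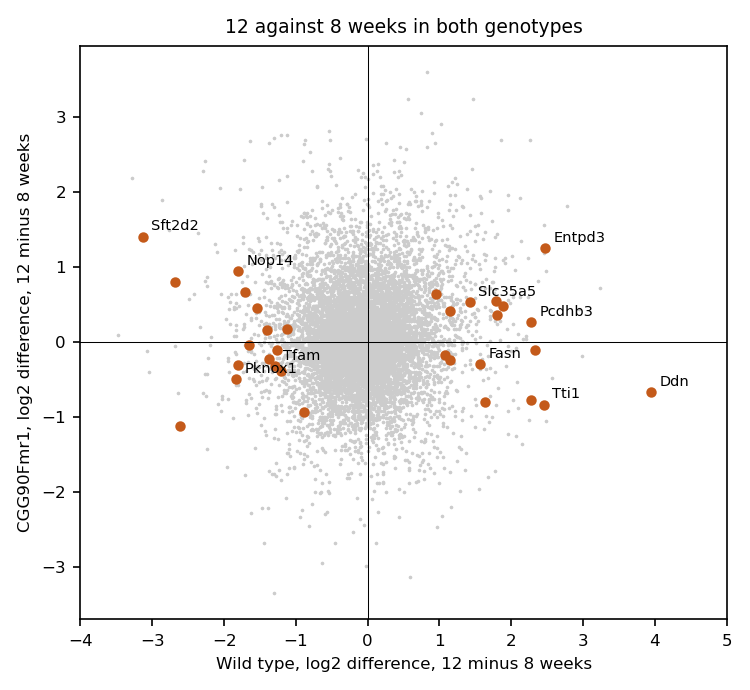
Difference between 12 and 8 weeks (log2) in CGG90Fmr1 libraries against that in wild-type libraries, 1 point per gene, with the 32 genes named by p in colour and some labelled. The cloud has no slope to speak of (Pearson's r 0.0601), and the marked genes lie on both sides of 0 on the CGG90Fmr1 axis.

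A test of whether the age step differed between the genotypes called 1 gene of 10068 (0.00993%), with 533 at an unadjusted p below 0.05 (5.29%). This gene, Cyb5rl, was at the floor in all 6 wild-type libraries, at 2.67, 2.70 and 2.70 at 12 weeks and 2.68, 2.65 and 2.84 at 8 weeks. Its mean was 5.74 in CGG90Fmr1 at 8 weeks and 2.75 at 12 weeks, so the difference between the steps of 2.96 (adjusted p = 0.0175) came from the CGG90Fmr1 libraries and describes no change in wild-type Purkinje cells. It was not called on leaving out wild-type 12-week replicate 1 or 3, wild-type 8-week replicate 1 or 2, or the libraries labelled CGG90Fmr1 replicate 1 at 8 or at 12 weeks.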

How the data were processed

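The authors deposited 1 table of log2 values, made with GCRMA per the submitters' processing notes. That method subtracts a background modelled on base content, normalizes and summarises probe sets. Which arrays were normalized together is not given in the sources used here. Of 45101 probe sets, 34958 had 1 gene symbol in the platform annotation, 932 several, 9211 none and 64 were array controls. For each gene the single-symbol probe set with the highest mean over 18 libraries was kept (18194 genes), and 10068 genes at log2 4 or more in at least 3 libraries were tested. Genes with no such probe set were not analysed here.

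limma 3.58.1 in R 4.3.3 fitted 6 group means (lmFit, eBayes, residual degrees of freedom 12, two-sided), with Benjamini-Hochberg adjustment over all 10068 genes and a threshold of 0.05. Errors of differences are SE of this fit. Single values per library were tested by exact permutation. Replicates are separate pools of mice. The number of arrays limits the precision. The fit was tested on simulated data. Replicate numbers were not used as pairs: deviations of same-numbered libraries correlated at r -0.0341, -0.288 and -0.0932.

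The text names Pcp2, Rpl10a and Fmr1; in each direction up to 10 genes of smallest p with both means at log2 4 or more and up to 6 with 1 mean below it; and up to 4 members per list by smallest p, with the interaction's call. Genes and lists were chosen with earlier results of these data known. Alternatives covered scaling, filters, probe sets, samples, day, replicate block, array weights, a marker covariate and each library left out.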

Additional observations from a re-analysis of the deposited data

Results flagged for a closer look

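Cyb5rl is listed because its step from 8 to 12 weeks differed between wild type and CGG90Fmr1 by 2.96 (limma, adjusted p = 0.0175), with the gene at the floor in both wild-type groups and a CGG90Fmr1 mean of 5.74 at 8 weeks.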

How the results depend on the processing

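In wild type, 0 genes were called higher and 0 lower in all 15 alternatives other than leaving out 1 library, and leaving out 1 of the 18 libraries gave 0 to 2 genes higher and 0 to 3 lower. Without wild-type 12-week replicate 2, Nkd2 (4.48), Nmrk1 (3.59), Gm13205 (-3.39), Srpk1 (-2.5) and Srrm1 (-1.86) passed; without 12-week replicate 3, 9430015G10Rik (2.32); without wild-type 4-week replicate 3, Ddn (3.95, adjusted p = 0.0375); without 8-week replicate 3, Dmrtc1a (3.14). The replicate block gave 0 genes in each direction. Genes with an unadjusted p below 0.05, 567 as reported, were 1510 with the day as a fixed block, 928 with array weights, 912 without a filter, 358 with the 6 wild-type libraries alone and 257 with these and the replicate block. The count for the difference between genotypes, 1, was 0 with a filter at log2 6, with the day as a fixed block and with the replicate block. It was also 0 with trend and robust moderation, and without the libraries labelled CGG90Fmr1 12 weeks replicates 1 and 2. The filter on the 6 wild-type libraries gave 0 as well, but it removes Cyb5rl, at the floor in all 6, before any test. Leaving out 1 library gave 0 to 2. Of 97 named genes, 80 kept their sign in every alternative. With the day as a fixed block the sign turned for Atf4 (-0.13), Dlg4 (0.41), Ebf2 (-0.53), Eif2b2 (0.09), Fdps (2.06), Homer1 (-0.87), Hspa4l (0.07), Kcnj3 (0.79), Lss (2.73), Rps9 (-0.07), Sqle (0.29), Srsf11 (0.32) and Unc13c (0.44), as it did for Dnajb4 (0.63) with the mean of all probe sets and for Tyrobp (-0.05) with array weights. On leaving out 1 library Fmr1 ran from -0.28 to 1.18, Rpl10a from -0.18 to 0.10 and Tyrobp from -0.63 to 2.22. List medians moved by more than the replicate spread in 37 of the comparisons with alternatives, 34 of them with the day as a fixed block. The day-blocked fit rests on 1 wild-type library per age, 12-week replicate 1 and 8-week replicate 3. The cause of these changes was not tested.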

Other observations

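Immediate early genes, which neurons switch on within minutes of activity, had 6 of 9 tested members higher at 12 weeks, with a median of 0.72, and none at an unadjusted p below 0.05; the other 14 members did not reach the filter. The median of the 9 was 0.03 without 8-week replicate 3, 0.24 without 12-week replicate 3 and 1.4 without 8-week replicate 2. With the day as a block all 9 were higher (median 1.69). Clock genes were lower in 11 of 15 (median -0.15), and in 8 of 15 without 12-week replicate 3 or with the day as a block (median -0.05 in each). Kdm5d, on the Y chromosome, read 5.58, 5.73 and 2.87 at 12 weeks and 7.02, 7.04 and 6.26 at 8 weeks, in pools labelled with 2 males each. Its ranges did not overlap between the ages. It was 1 of 2 sex-linked genes tested, with differences of -2.05 and -0.84, and 0 of them had an unadjusted p below 0.05 (limma). With the day as a block both were higher (median 1.51). In CGG90Fmr1 both were higher at 12 weeks (median 1.86).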
